A study of Sus scrofa with 18 samples.

Results

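MT3, FTH1 and GPX4 encode proteins that keep reactive metals and lipid peroxides in check, and their transcripts were followed here in 18 piglet retinas. They are 3 of the 5710 genes with a tested, singly named probe set on the array, and every probe set that the platform annotation gives to one of these symbols alone was taken, 4 in all. MT3 and FTH1 had 1 such probe set each and GPX4 had 2, and the brightest probe set stood for each gene. A further 1 probe set was annotated to MT3 together with another gene and 5 to FTH1 together with another gene, and these were not used. The genes were chosen by symbol with results of these arrays already known, and the diet difference of MT3 was known to be among those with the smallest p. MT3 is therefore treated as selected on that difference, which is given as a description and supports nothing.

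The study fed male domestic piglets, a cross of Landrace with Large White, from an age of 3 days and took their retinas on postnatal day 38. The sialyllactose group (n = 9) received pig milk replacer to which sialyllactose had been added, an oligosaccharide of milk that joins sialic acid to lactose, and the control group (n = 9) received pig milk replacer at the basal level. The dose, the litters and any array batch are not given in the sources used here, so no batch was tested. RNA of whole retina was measured, and in such a mixture fewer cells of a type and less RNA per cell cannot be told apart. The labels number 9 samples per group, 1 array each, and the p-values measure the spread between these samples.

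Metallothioneins are small cysteine-rich proteins that bind zinc and copper. MT3 is the form known from mouse and human brain, where it is made in neurons and glia and not driven by metals as strongly as its relatives. FTH1 is the heavy chain of ferritin. It oxidises iron before it is stored in the ferritin shell, next to the light chain FTL, and in mammals its mRNA is held back from translation when iron is scarce. GPX4 is a selenium-containing peroxidase that reduces lipid hydroperoxides inside membranes with glutathione as the reductant. Photoreceptors, whose membranes are rich in polyunsaturated fatty acids, need it in mouse. Roles below are those known from mouse and human.

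Defining retinal transcripts were present in every array. SAG, rod arrestin, averaged 10.6 over the 18 arrays, ARR3, cone arrestin, 9.63 and GLUL, the glutamine synthetase of Mueller glia, 10.5 (log2 values). The rod list was thin, with 2 of 13 markers tested. Over the 16799 tested probe sets any array correlated with any other at 0.981 to 0.992, and 0 pairs were identical.

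All 3 genes were bright in retina, and MT3 varied most from animal to animal. MT3 (NCBI Gene 397123) lay between 6.22 and 7.13 over the 18 arrays on the log2 scale, a 1.88-fold range, and its mean lay at percentile 92.0 of the tested probe sets by brightness. FTH1 (NCBI Gene 397030) lay between 9.88 and 10.21, a 1.26-fold range, and GPX4 (NCBI Gene 399537) between 9.92 and 10.20, a 1.21-fold range. Both were near the top of the array, at percentile 99.8. The second GPX4 probe set lay between 0.734 and 1.28, under the level at which probe sets were tested (lowest mean kept, 1.48), and gives no usable level. Brightness ranks probe sets and not amounts of RNA, since probes differ in their response.

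The spread within diets separated MT3 from the other members. Its SD between retinas on the same diet was 0.187 (log2), which corresponds to 1.14-fold. Among the 400 tested probe sets closest to it in brightness this SD lay at percentile 92.0, and their median SD was 0.109. FTH1 had an SD of 0.0844, at percentile 40.5 of its 232 nearest probe sets (median 0.0932), and GPX4 one of 0.0677, at percentile 17.2 of its 233 nearest (median 0.0930). MT3 thus varied more than most equally bright probe sets, while GPX4 lay at the even end of its neighbours.

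**Figure D1:**
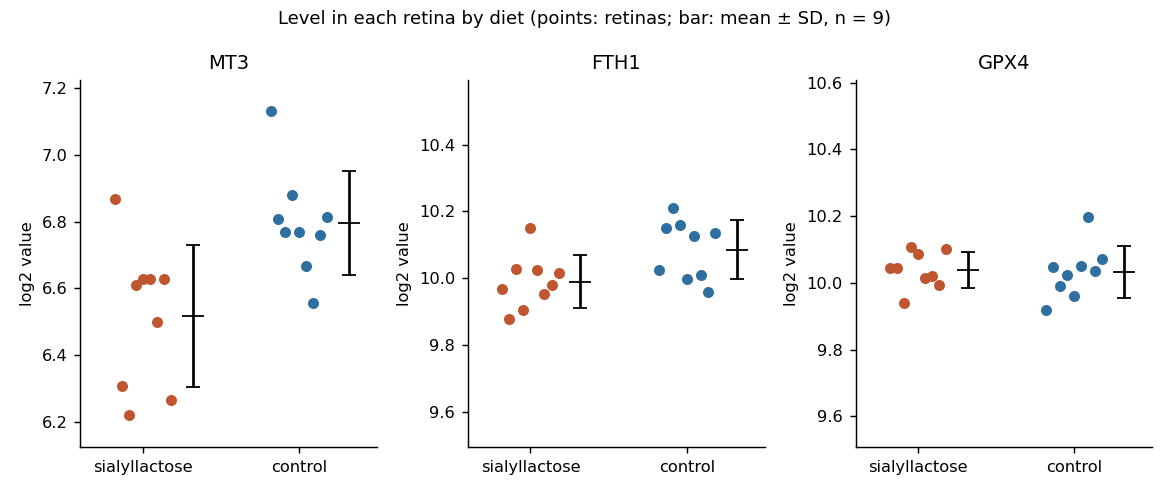
Log2 value of MT3, FTH1 and GPX4 in each of 18 retinas by diet, with mean ± SD (n = 9 each), on axes that span the same number of log2 units. MT3 is spread over 6.22 to 7.13, while FTH1 and GPX4 stay within 1.26-fold and 1.21-fold ranges, and the diets overlap in all 3 genes.

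MT3 had a lower mean with sialyllactose. With sialyllactose the lowest, median and highest retinas stood at 6.22, 6.61 and 6.87, against 6.56, 6.77 and 7.13 in control retinas (log2). The groups overlapped: 4 of 9 sialyllactose retinas lay below the lowest control retina, and 2 control retinas lay above the highest sialyllactose retina. Replicates 2, 3 and 9 formed the low end of the sialyllactose group, at 6.31, 6.22 and 6.27, and replicate 1 was the highest retina in both groups, at 6.87 with sialyllactose and 7.13 in control. The means were 6.52 ± 0.21 with sialyllactose and 6.80 ± 0.16 in control (SD, n = 9 each), a difference of -0.28 (95% interval -0.45 to -0.10) or 0.825-fold. Of the sialyllactose retinas 8 of 9 lay below the control median. At least 8 of 9 did so in 9.11% of all tested probe sets. In the limma fit 0 of the 16799 probe sets, or 0%, had an adjusted p under 0.05, so MT3 did not pass. An unadjusted p under 0.05 was reached by 1059 probe sets, or 6.3%, with 565 of them lower (3.36% of all) and 494 higher (2.94%).

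FTH1 also had a lower mean with sialyllactose, by a much smaller amount. With sialyllactose its lowest, median and highest retinas stood at 9.88, 9.98 and 10.15, against 9.96, 10.13 and 10.21 in control retinas. Here too 8 of 9 sialyllactose retinas lay below the control median, and 3 lay below the lowest control retina. The means were 9.99 ± 0.08 with sialyllactose and 10.09 ± 0.09 in control (SD, n = 9 each), a difference of -0.10 (95% interval -0.20 to 0.003) or 0.936-fold. It did not pass the limma test (adjusted p = 0.779). The lower end of the 95% interval corresponds to 0.873-fold.

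GPX4 had nearly the same mean in both diets. With sialyllactose its lowest, median and highest retinas stood at 9.94, 10.045 and 10.11, against 9.92, 10.035 and 10.20 in control retinas, and 5 of 9 sialyllactose retinas lay above the control median. The means were 10.04 ± 0.05 with sialyllactose and 10.03 ± 0.08 in control (SD, n = 9 each), a difference of 0.01 (95% interval -0.08 to 0.10; limma adjusted p = 0.993). The interval places the ratio of sialyllactose to control between 0.944-fold and 1.07-fold. The sign of this difference turned when any 1 of 4 retinas was left out, as far as -0.01 without control replicate 1.

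The other genes of metal handling and redox defence were read from lists of 167 symbols, of which 100 had a singly named probe set and 92 were tested, the 3 members included. None of the other 89 passed in either direction. Their means were lower with sialyllactose in 53 and higher in 36, with a median difference of -0.02 on the log2 scale, beside -0.01 over all tested probe sets, of which 53.4% were lower. An unadjusted p under 0.05 was reached by 3 of the 89, or 3.37%, namely GPX1, which was higher, and MGST1 and NQO1, which were lower, beside 6.3% of all probe sets.

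Of the 9 tested genes of metallothioneins and zinc transport, 3 had lower and 6 higher means with sialyllactose. MT1A, the other metallothionein with a probe set of its own, was dim, at 2.61 ± 0.15 with sialyllactose and 2.75 ± 0.20 in control (SD, n = 9 each). Its difference of -0.14 had the same sign as that of MT3 and did not pass (limma adjusted p = 0.800). Of the zinc importers, SLC39A14, also dim, stood at 2.40 ± 0.11 with sialyllactose and 2.30 ± 0.14 in control, and SLC39A1 at 3.83 ± 0.12 and 3.77 ± 0.17. Metallothionein genes are close relatives in sequence, and cross-hybridisation between them was not tested.

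Of the 19 tested iron and haem genes, 12 had lower and 7 higher means with sialyllactose, with a median difference of -0.02. FTL, the ferritin light chain that shares the shell with FTH1, stood at 9.02 ± 0.09 with sialyllactose and 9.04 ± 0.11 in control, a difference of -0.02 in its brighter probe set. TFRC, the transferrin receptor that brings iron into cells, lay near the floor at 1.48 ± 0.12 and 1.49 ± 0.19. TF, transferrin itself, differed widely between animals, from 8.05 to 9.50 with sialyllactose and from 7.55 to 10.4 in control, and its 2 probe sets differed in sign between the diets (-0.23 in the brighter, 0.08 in the dimmer). Without control replicate 7 the difference of TF in the brighter probe set was -0.08, and without control replicate 8 it was -0.43. HMOX1, which breaks down haem, was at 2.43 ± 0.18 with sialyllactose and 2.31 ± 0.09 in control, and HAMP, the iron hormone hepcidin, at 2.03 ± 0.15 and 1.93 ± 0.19. HMOX1 and HAMP were thus dim. ALAS1, the first enzyme of haem synthesis, was at 4.35 ± 0.12 and 4.43 ± 0.09. FTL, TFRC and TF were named after their values were seen, as known partners of FTH1 in iron storage and uptake.

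Of the 26 tested glutathione and selenium genes, 16 had lower and 10 higher means with sialyllactose. GPX1, the cytosolic glutathione peroxidase and a selenoprotein like GPX4, had the largest difference of all 92 genes, with 6.13 ± 0.42 with sialyllactose and 5.41 ± 1.08 in control (difference 0.72, 95% interval 0.01 to 1.42; limma adjusted p = 0.779). Its values did not vary smoothly. With sialyllactose 6 retinas lay between 6.33 and 6.49 and 3 between 5.46 and 5.65. In control 2 lay at 6.61 and 6.73, 5 between 5.47 and 5.76, and 2 at 3.51 and 3.90. The array holds 1 probe set for GPX1 with a single symbol, so these steps have no second measurement. Whether its probes bind the GPX1 transcript of every piglet equally was not tested, so the difference may not be one of RNA amount. Without control replicate 5 the difference of GPX1 was 0.48.

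GPX4 did not share this pattern, and its correlation with GPX1 within diets was 0.06. MGST1, a membrane-bound glutathione transferase with peroxidase activity, stood at 6.07 ± 0.10 with sialyllactose and 6.22 ± 0.13 in control, the smallest adjusted p of the other pathway genes (limma, 0.753). SELENOT, a selenoprotein of the endoplasmic reticulum, was at 6.35 ± 0.10 and 6.46 ± 0.09, and GPX2, the gut form of the peroxidase, near the floor at 2.67 ± 0.13 and 2.55 ± 0.12 (SD, n = 9 each).

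No gene of the remaining lists passed either. Of 16 thioredoxin and peroxiredoxin genes 10 had lower means with sialyllactose, among them PRDX1, a peroxiredoxin, at 5.70 ± 0.11 with sialyllactose and 5.84 ± 0.22 in control, TXN, thioredoxin, at 7.42 ± 0.13 and 7.51 ± 0.08, and PARK7, a redox sensor, at 8.07 ± 0.09 and 8.12 ± 0.13. Among the 6 with higher means was MSRB2, which repairs oxidised methionine, at 4.38 ± 0.14 with sialyllactose and 4.30 ± 0.18 in control. Of 11 genes of superoxide and peroxide removal and NRF2 targets 7 were lower, with NQO1, a quinone reductase, at 4.11 ± 0.16 with sialyllactose and 4.30 ± 0.23 in control (limma adjusted p = 0.773). SOD2, the mitochondrial superoxide dismutase, was at 6.29 ± 0.10 and 6.35 ± 0.25, and AKR1A1, an aldehyde reductase, at 4.88 ± 0.20 and 4.94 ± 0.13.

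Of 7 genes of lipid peroxidation 5 were lower. ACSL4, which loads membranes with the polyunsaturated fatty acids that GPX4 protects, was at 5.72 ± 0.13 with sialyllactose and 5.77 ± 0.20 in control. SAT1, a polyamine enzyme, was at 8.60 ± 0.15 and 8.69 ± 0.14, and FDFT1, squalene synthase, at 6.22 ± 0.10 and 6.27 ± 0.10. LPCAT3, a phospholipid remodelling enzyme, lay near the floor at 1.74 ± 0.12 and 1.67 ± 0.27. The 4 copper genes split evenly, with CCS, the copper chaperone of superoxide dismutase, at 4.31 ± 0.14 and 4.19 ± 0.18, ATOX1, a copper chaperone, at 5.53 ± 0.09 and 5.59 ± 0.14, and the copper transporters SLC31A2 at 5.40 ± 0.29 and 5.29 ± 0.19 and SLC31A1 at 4.05 ± 0.17 and 4.07 ± 0.19.

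**Figure D2:**
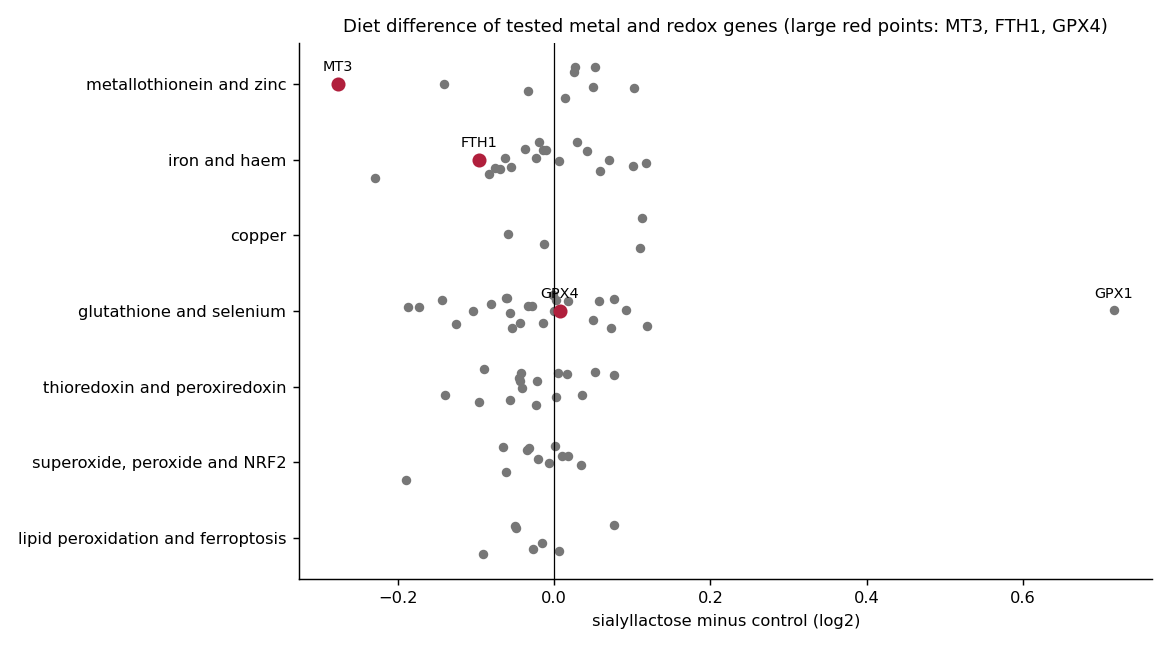
Difference of mean log2 values, sialyllactose minus control, for each tested gene of the 7 metal and redox lists, with 1 point per gene and the vertical scatter within a list added for legibility. MT3 lies farthest to the left (-0.28), FTH1 lies at -0.10, GPX4 at 0.01, and GPX1 stands far to the right at 0.72.

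Whether the 3 genes vary together between animals on the same diet was asked with deviations from the diet means. No pair passed over the 18 retinas. Pearson's r was 0.06 for MT3 with FTH1 (permutation p = 0.823), -0.29 for MT3 with GPX4 (permutation p = 0.227) and -0.03 for FTH1 with GPX4 (permutation p = 0.920), all two-sided with 100000 shuffles within diets. Adjusted over the 3 pairs the p-values were 0.920, 0.681 and 0.920. Spearman's rho was 0.15 (permutation p = 0.537), -0.19 (permutation p = 0.446) and 0.05 (permutation p = 0.860), with adjusted p-values of 0.805, 0.805 and 0.860. For the MT3 and GPX4 pair, 24.0% of the 5709 other named genes had an r with MT3 at least as large in size, and for the other pairs the share was 81.5% and 91.0%. Without the 2 retinas farthest from the median of the first gene, r was 0.26, -0.13 and -0.14.

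**Figure D3:**
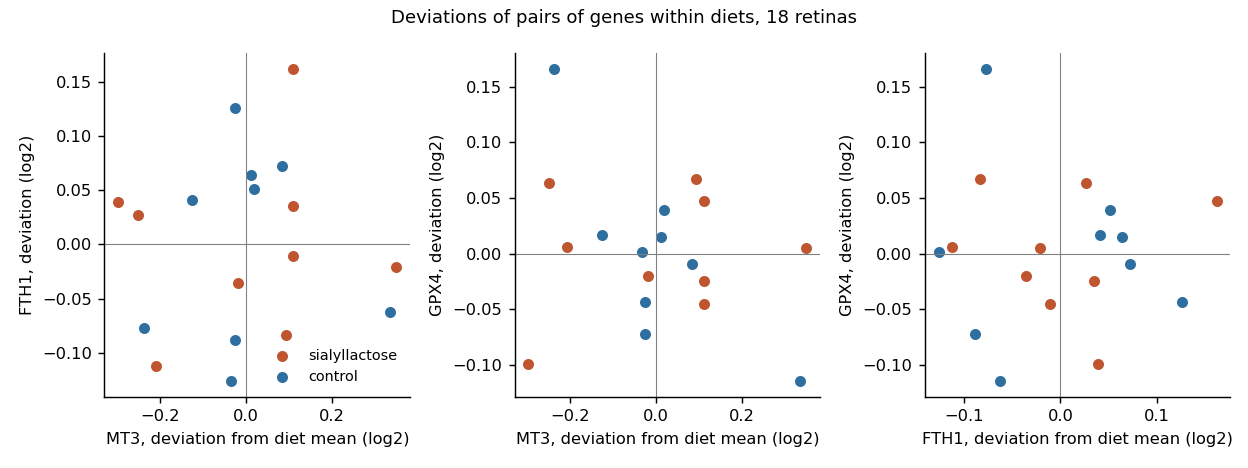
Deviation from the diet mean (log2) of one gene against another for the 3 pairs, with 1 point per retina coloured by diet. No pair passed the test over the 18 retinas, and in the MT3 and GPX4 panel 2 control retinas lie apart at the upper left and lower right.

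The pair MT3 and GPX4 gave a different picture in each diet. In sialyllactose retinas r was 0.20 (exact permutation p = 0.606, n = 9) and in control retinas -0.78 (exact permutation p = 0.0156, n = 9). Adjusted over the 6 tests of 3 pairs in both diets, the control value had p = 0.0936, and Spearman's rho in control was -0.53 (exact permutation p = 0.150, n = 9). The control value rested on replicate 1, which had the highest MT3 and the lowest GPX4, and replicate 7, which had the lowest MT3 and the highest GPX4. Over the other 7 control retinas r was 0.02. Whether the diets differed in this relation was not tested.

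FTH1 and FTL, the chains of one protein shell, had r = 0.06 over the 18 retinas, while MT3 had r = 0.47 with FTL (0.64 with sialyllactose, 0.32 in control). MT3 and MT1A had r = 0.51 (0.41 with sialyllactose, 0.66 in control). FTH1 with TFRC, which iron controls in the opposite sense at the level of mRNA stability and translation, had r = -0.52, of which -0.05 in sialyllactose and -0.81 in control retinas, with TFRC near the floor. GPX4 and TALDO1, transaldolase of the pentose phosphate pathway, had r = 0.68 (0.65 with sialyllactose, 0.82 in control). TKT and PGD, of the same pathway, had r = -0.28 and -0.04 with GPX4. These partner values were picked out after they were seen and carry no test.

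The genes most like each member were ranked by r over all 5707 other named genes. Closest to MT3 were NUAK1, a kinase (r = 0.75), RBPMS, an RNA-binding protein that marks ganglion cells (0.73), DAPL1, a gene of retina and pigment epithelium (0.70), ERC1, a scaffold of the presynaptic active zone (0.70), and DYNC1LI2, a dynein chain (0.69). Furthest were PLA2G16, a phospholipase (-0.81), AIFM1, a flavoprotein of mitochondria (-0.79), and CES3, a carboxylesterase (-0.74). For AIFM1 the value was -0.84 in sialyllactose and -0.74 in control retinas, and for PLA2G16 it was -0.84 and -0.78. The RBPMS value rested on 1 of 3 tested probe sets: the other RBPMS probe sets had r = 0.06 and -0.01 with MT3. CES3 and ERC1 were dim, with means of 1.90 and 2.02 with sialyllactose and 1.75 and 2.04 in control.

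For FTH1 the closest were TWF2, an actin regulator (r = 0.71), CREM, a transcription factor (0.71), IRF2BP1, a repressor (0.70), HSPB6, a small heat shock protein (0.69), and THAP6 (0.69). The furthest were TAOK3, a kinase (-0.80), MTCH2, a protein of the outer mitochondrial membrane (-0.73), and APPBP2, which binds the amyloid precursor protein (-0.73). Of the closest, TWF2, HSPB6 and IRF2BP1 were dim, with means of 1.88, 1.73 and 2.64 with sialyllactose and 1.90, 1.66 and 2.64 in control.

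For GPX4 the closest were NDUFA8, a subunit of respiratory complex I (r = 0.73), PITPNM3, a membrane-associated protein (0.72), TUSC2, a mitochondrial protein (0.72), UBAC1, part of a ubiquitin ligase (0.72), and C9H1orf74 (0.71). The furthest were POLR2H, an RNA polymerase subunit (-0.81), TMEM170A (-0.75) and PPL, periplakin (-0.72). Control replicate 7, the retina with the highest GPX4, carried part of this. Without it r was 0.56 for NDUFA8, 0.47 for PITPNM3, 0.46 for TUSC2, 0.57 for UBAC1 and 0.50 for C9H1orf74. The value for POLR2H was then -0.67, while those for TMEM170A and PPL were both -0.76 and so no smaller. PPL, TMEM170A and C9H1orf74 were dim, with means of 1.72, 2.22 and 2.68 with sialyllactose and 1.75, 2.26 and 2.74 in control.

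Rankings made within one diet had low values in the other. The 20 genes closest to MT3 in sialyllactose retinas had a median r of 0.88 there and 0.13 in control retinas, and the 20 closest in control had 0.12 in sialyllactose retinas, against 0.83 where they were chosen. For GPX4 the genes chosen in sialyllactose retinas had a median r of 0.02 in control, and those chosen in control 0.21 in sialyllactose retinas. For FTH1 the values in the other diet were -0.12 and -0.05. Of the 5707 genes, 36 had an r of at least 0.5 with MT3 in both diets and 34 one of at most -0.5 in both, while 72 passed 0.5 in size with opposite signs. For FTH1 these counts were 30, 29 and 68, and for GPX4 46, 40 and 59.

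Marker lists of retinal and neighbouring cell types were set beside the members, 12 lists for 3 genes, or 36 relations. None passed after adjustment over all 36. The largest was between MT3 and the cone list (r = -0.63, permutation p = 0.0052, adjusted p = 0.168; rho = -0.53, permutation p = 0.0252, adjusted p = 0.388), with -0.77 in sialyllactose and -0.59 in control retinas. Without the 2 retinas farthest on the cone list r was -0.52. Of its 4 tested cone genes, GRK7, a cone opsin kinase, had r = -0.63 with MT3, ARR3 -0.58 and OPN1SW, the short-wave opsin, -0.55, while PDE6C, near the floor, had 0.30.

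GPX4 had a value of the opposite sign with the cone list (r = 0.61, permutation p = 0.0186, adjusted p = 0.168; rho = 0.42, permutation p = 0.0897, adjusted p = 0.527). Its r was 0.29 in sialyllactose and 0.76 in control retinas, and 0.34 without the 2 farthest retinas. The mean of the cone list ran from 4.85 to 5.32 in sialyllactose and from 4.73 to 5.48 in control retinas. Its 4 tested genes all had means above control with sialyllactose, none past the test, the opposite sign to MT3, and the part of the list in the MT3 difference was not tested.

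For MT3 and the list of inner retinal neurons the value was positive (r = 0.59, permutation p = 0.0099, adjusted p = 0.168; rho = 0.54, permutation p = 0.0203, adjusted p = 0.388), with 0.81 in sialyllactose and 0.39 in control retinas. Without RBPMS the remaining 7 genes gave r = 0.43, and without the 2 farthest retinas the full list gave 0.38. Of the 8 genes 6 had an r above 0 with MT3, among them CALB2, a calcium-binding protein of inner neurons (0.45), NEFL, a neurofilament of ganglion cells (0.41), and GAD1, an enzyme of GABA synthesis in amacrine cells (0.33). PRKCA, a kinase of rod bipolar cells, had -0.18 and LHX1, a transcription factor of horizontal cells, -0.15. The list mean lay between 4.99 and 5.22 in sialyllactose and between 4.98 and 5.25 in control retinas.

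Mueller glia, a main site of metal and glutathione handling in retina, had a list r of -0.12 with MT3 over 11 genes (permutation p = 0.634, adjusted p = 0.825; rho = -0.14, permutation p = 0.567, adjusted p = 0.807), which was -0.56 in sialyllactose and 0.36 in control retinas. Over both diets 5 of the 11 genes had an r above 0 with MT3. Within sialyllactose retinas most were below 0. GLUL (r = -0.89 with MT3) and RLBP1, which carries retinoids in these glia (-0.82), were the lowest. SLC1A3 had -0.65, APOE -0.43, CD9 -0.31, SPARC -0.29, CLU -0.21, SOX9 -0.07 and DKK3 -0.04. Only S100B, a calcium-binding protein (0.54), and VIM, an intermediate filament (0.34), were above 0 there. In sialyllactose replicates 2, 3 and 9, the low end of MT3, GLUL lay 0.41, 0.35 and 0.40 above its diet mean (log2). In all other sialyllactose retinas GLUL lay below that mean, and an r without these replicates was not computed. Within control retinas most of the 11 genes were above 0, with GLUL at 0.18 and RLBP1 at 0.34. APOE (-0.008) and SOX9 (-0.25) were the exceptions. The difference between the diets was not tested. Of the 11 Mueller glia genes 10 had lower means with sialyllactose, as MT3 did, beside 53.4% of all tested probe sets. The list mean lay between 7.02 and 7.33 with sialyllactose and between 7.12 and 7.49 in control retinas. Its part in the MT3 and FTH1 differences was not tested.

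Some other marker lists also had mostly lower means with sialyllactose, beside 53.4% of all tested probe sets. In the list of endothelium and pericytes, the cells of retinal vessels, 8 of 9 tested genes were lower, with a median difference of -0.11, and the list mean lay between 3.04 and 3.37 with sialyllactose and between 3.15 and 3.52 in control retinas. No gene of the list passed the limma test. It held 3 genes of 9 with an unadjusted p under 0.05, more than any other marker list, beside 6.3% of all tested probe sets. These were TEK, the angiopoietin receptor (difference -0.23), PECAM1, an adhesion molecule of endothelium (-0.16), and VWF, von Willebrand factor (-0.32). TEK and VWF were dim, with means of 1.62 and 1.65 with sialyllactose and 1.86 and 1.97 in control. Within diets the list had r = 0.06 with MT3 (permutation p = 0.823, adjusted p = 0.896; rho = 0.09, permutation p = 0.739, adjusted p = 0.807), and its part in the MT3 difference was not tested. Lower means were also found in 6 of 8 genes of inner retinal neurons, 4 of 6 of pigment epithelium, 3 of 4 of microglia and immune cells and 2 of 3 of myelin. Of the 11 acute stress genes 6 were lower and 5 higher. Higher means were found in 9 of 14 interferon response genes and all 4 cone genes. The rod and red blood cell lists each had 1 of 2 genes higher.

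For FTH1 the largest value was with the list of astrocyte and glial stress genes (r = 0.55, permutation p = 0.0170, adjusted p = 0.168; rho = 0.52, permutation p = 0.0485, adjusted p = 0.388), with positive r for all 6 tested genes. GFAP, the astrocyte filament, had 0.44 and S100A10, an annexin partner, 0.41. Without the 2 farthest retinas r was 0.25. The list mean lay between 3.62 and 3.77 in sialyllactose and between 3.58 and 4.22 in control retinas. Of its 6 genes 4 had lower means with sialyllactose, beside 53.4% of all tested probe sets, and 2 had higher means. The largest differences were -0.41 for GFAP (limma adjusted p = 0.691) and -0.35 for CEBPD, which was dim. Neither passed. With MT3, 3 of the 6 genes had an r above 0, and GFAP had 0.45 (0.09 with sialyllactose, 0.81 in control). The part of this list in the FTH1 and MT3 differences was not tested.

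**Figure D4:**
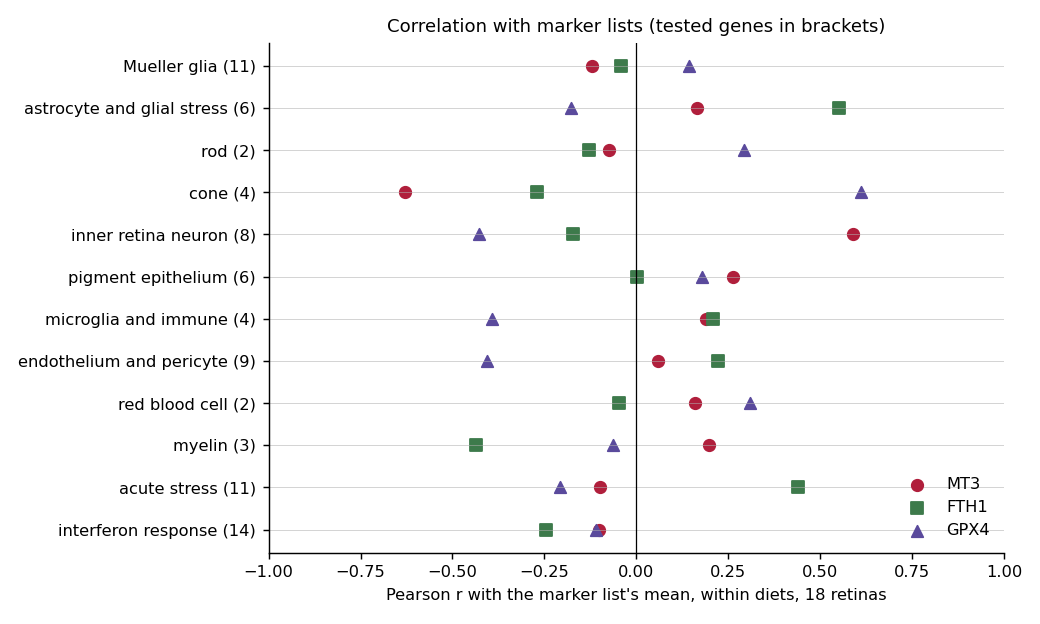
Pearson r of MT3, FTH1 and GPX4 with the mean of each marker list, computed on deviations from the diet means over 18 retinas, with the number of tested genes in brackets. The cone list separates MT3 (-0.63) from GPX4 (0.61), and none of the 36 values passed after adjustment.

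**Figure D5:**
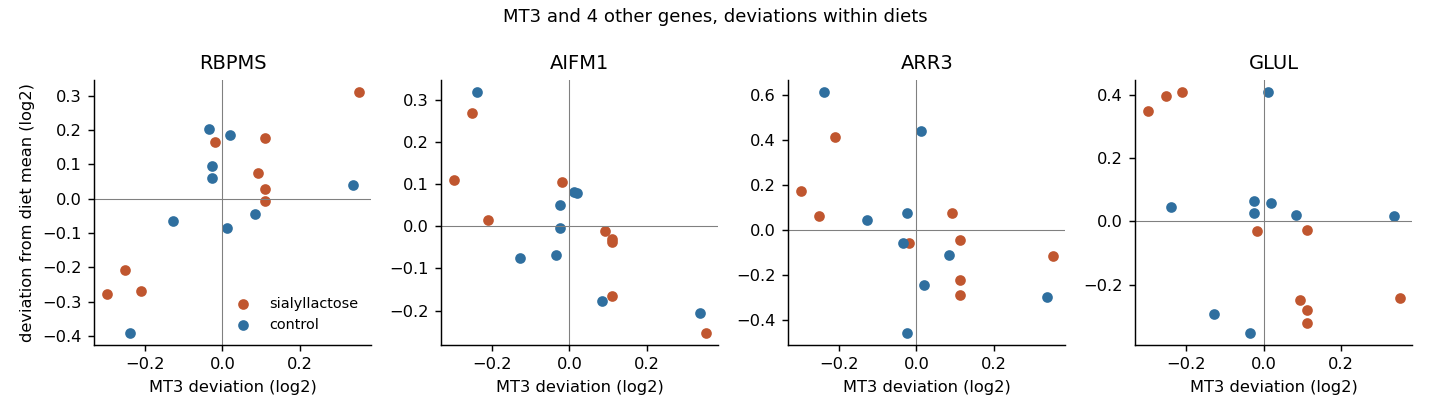
Deviation from the diet mean (log2) of RBPMS, AIFM1, ARR3 and GLUL against that of MT3, with 1 point per retina coloured by diet. AIFM1 and ARR3 are lower where MT3 is higher in both diets, whereas GLUL is so in sialyllactose retinas (r = -0.89) and not in control retinas (0.18). Sialyllactose replicates 2, 3 and 9 lie apart in the GLUL panel, low in MT3 and high in GLUL.

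Within diets, r with the array median was 0.01 for FTH1, 0.42 for MT3 and -0.28 for GPX4, and the first principal component of the deviations, with 14.4% of the variance, had an r of 0.15 in size with MT3, 0.27 with FTH1 and 0.09 with GPX4. After centring of the arrays on their medians the difference was -0.26 for MT3.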

How the data were processed

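Total RNA of 18 retinas was hybridised to Affymetrix pig arrays. The deposited values are on the log2 scale, 1 for each probe set of an array. The authors used RMA in Affymetrix Expression Console, as far as the submitters' processing notes go, with settings not given in the sources used here. RMA brings all arrays to a common distribution, which hides shifts common to most genes, and it makes no detection call. Precision is limited by the number of arrays.

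Of 24123 probe sets, 124 controls and then the dimmest 30% by mean were left out, which left 16799. Symbols came from the platform annotation (10099 probe sets with 1, 198 with several, 13826 with none), and 9989 were found by gene identifier in a RefSeq table with 0 changed. Each gene was taken at its brightest tested probe set. Sequences and coordinates were not used here.

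Diets were compared with limma 3.58.1 in R 4.3.3 (lmFit and eBayes), sialyllactose minus control, Benjamini-Hochberg over all tested probe sets, threshold 0.05; the fit was tested on simulated data. Correlations used deviations from diet means, with permutation by numpy 2.4.6 and scipy 1.17.1. Named genes are the 5 highest and 3 lowest correlates of each member, up to 4 genes per pathway list by smallest p, and up to 3 bright markers per list, plus those said to be picked later. Genes, lists and tests were chosen with earlier results of these data known. Alternatives were other filters, scalings, weights, a replicate block and leaving out each array.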

Additional observations from a re-analysis of the deposited data

Results flagged for a closer look

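Among 56 named genes in both diets, or 112 groups of 9 retinas, 9 had 1 retina far from the rest by Dixon's ratio (gap to the nearest retina over the whole range, against its 95% critical value), where chance gives about 1 in 20. None of them was MT3, FTH1 or GPX4.

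Control replicate 7, the control retina with the lowest MT3 and the highest GPX4, held 4 of the 9. RBPMS was at 2.87 there, with the nearest control retina at 3.18, and LPCAT3 at 1.02, with the nearest at 1.49. PITPNM3 was at 7.23, with the nearest at 6.78, and TUSC2 at 5.26, with the nearest at 4.995. Of these, RBPMS, PITPNM3 and TUSC2 are among the closest correlates of a member, and their r values above include this retina.

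With sialyllactose, ACSL4 was lowest in replicate 7 at 5.44 (nearest 5.68), GPX2 highest in replicate 8 at 2.96 (nearest 2.76) and SELENOT highest in replicate 4 at 6.58 (nearest 6.39). In control, ATOX1 was highest in replicate 2 at 5.90 (nearest 5.66) and TXN lowest in replicate 9 at 7.35 (nearest 7.49).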

How the results depend on the processing

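No member passed the limma test under any filter, scaling, weighting, trend, block or left-out array (lowest adjusted p 0.556), and neither did any other pathway gene. Without single arrays the MT3 diet difference ran from -0.32 to -0.24, the FTH1 diet difference from -0.12 to -0.08 and the GPX4 diet difference from -0.0074 to 0.0276, with its sign turned in 4 of 18 fits. Scaling made the FTH1 diet difference smaller, at -0.0786 with centred arrays and -0.0739 with quantile normalization, against -0.0962 as deposited. Each member has 1 tested probe set, so averaging probe sets could change nothing.

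The FTH1 with GPX4 correlation within diets was 0.0464 by rank, 0.0612 with arrays centred on their medians and -0.14 to 0.18 without single arrays. The MT3 with FTH1 correlation within diets was -0.0057 with centred arrays and -0.0518 to 0.17 without single arrays. The MT3 with GPX4 correlation within diets ran from -0.54 to -0.10 without single arrays, was 0.20 in sialyllactose retinas alone and 0.0169 in control retinas without replicates 1 and 7. That last setting was chosen after seeing the data, as was leaving out replicate 1 of both diets for the MT3 diet difference (-0.28). The cause of these changes was not tested.

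The diets share replicate numbers, and the deviations of same-numbered retinas correlated at -0.11 to 0.16, over 0.1 in 3 of 9 pairs. Of the sialyllactose retinas 3 of 9 were closest to the control retina of their own number. Whether the numbers pair the samples was not tested. With the replicate block the MT3 diet difference was -0.28 (limma adjusted p = 0.725), FTH1 diet difference -0.10 (0.775) and GPX4 diet difference 0.01 (0.990). The MT3 with FTH1 correlation within diets was then 0.58 and the FTH1 with GPX4 correlation within diets 0.15. With diet and replicate number both removed, same-numbered retinas had equal and opposite deviations, so each correlation rested on 9 values. Shuffles within diets did not keep this mirroring. The permutation p of MT3 with FTH1 adjusted over the 3 pairs (0.0513) therefore decides nothing.

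The median diet difference of the other pathway genes was -0.0021 with centred arrays and -0.0018 with quantile normalization, against -0.02 as deposited. Small differences of other genes turned sign. The SLC31A1 diet difference was 0.0046 with centred arrays, 0.0051 with quantile normalization, 0.0043 with array weights and -0.0634 to 0.0208 without single arrays. The TFRC diet difference was 0.0074 with centred arrays, 0.0046 with array weights and -0.053 to 0.0237 without single arrays, and the LPCAT3 diet difference -0.0037 to 0.11. Averaged over probe sets, the FTL diet difference was 0.0053 and the TXN diet difference 0.0056. The 24 named correlates changed sign in 0 of 504 settings (smallest size of r 0.44). They were chosen for extreme r on these same retinas, so a sign change was unlikely from the start. The count therefore supports nothing.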
